A study of Xenopus tropicalis with 20 samples.

Results

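Translation initiation and elongation factors are the proteins that load ribosomes onto messenger RNA, move them along it and release the finished chain. Their genes were taken by name: every symbol that began with eif1 to eif6, eef1 or eef2, or gspt, or was etf1, with the eif2ak kinases left out. Of the 20372 named genes, 63 matched, and 59 of these had a mean of at least 1 FPKM (fragments mapped to a transcript, scaled to its length and to the depth of the library) over the libraries. The rule used no comparison between groups, and the 59 were among 10228 genes tested. At the filter, eif2b5 was just inside at a mean of 1.01 FPKM, and eif2d just outside at 0.951 FPKM.

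During initiation, eIF2 carries the initiator tRNA to the small ribosomal subunit, which eIF1, eIF1A, eIF3 and eIF5 prepare for scanning, while eIF4E binds the cap of the mRNA and recruits the scaffold eIF4G and the helicase eIF4A. eIF5B then joins the large subunit, eEF1A brings each aminoacyl-tRNA, eEF2 moves the ribosome on by a codon, and eRF1 and eRF3 end the chain at a stop codon. The liver makes most plasma proteins, and in a mature frog female also vitellogenin, so the pathway is heavily used there.

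Liver RNA came from 20 mature Xenopus tropicalis (western clawed frog) females, none of which was exposed herself. F2 mixture and F1 mixture females (5 libraries each) were second- and first-generation offspring of F0 frogs kept with benzo[a]pyrene and triclosan at 50 ng/L between the tadpole and adult stages, and F2 control and F1 control females (5 each) were the control offspring of those generations. Each biological replicate was 15 mg of liver, prepared with a stranded mRNA kit and read at 75 bp. No strain, age or clutch is named, so p-values measure the spread between these libraries. The control reads belong to an earlier series by the design text, so treatment and sequencing batch cannot be told apart, nor can generation and batch.

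The deposited FPKM limits, read as counting error, correspond to 7896246 to 16704801 fragments per library. By group this was 9502272 to 14710620 in F2 mixture and 10601298 to 14079161 in F2 control livers. It was 13538277 to 16704801 in F1 mixture and 7896246 to 12057469 in F1 control livers. The F1 groups did not overlap, so depth and treatment cannot be told apart in F1, nor in the difference of effects that uses these groups. Values below are FPKM divided by a scaling factor per library (0.717 to 1.26), called scaled FPKM. All 12 hepatocyte markers looked up were found, and their sum over the 11 with a value in every library was 4604 to 14487 scaled FPKM in F2 mixture, 10772 to 15039.5 in F2 control, 6642 to 14948 in F1 mixture and 4078 to 9950.1 in F1 control livers. In such bulk samples fewer cells of a type and less RNA per cell cannot be told apart. F2 mixture 2 stood apart from its group, with a mean correlation to the other F2 mixture libraries of 0.907 and the lowest limma array weight, 0.288.

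The 59 genes covered a range from 0.994 to 7433 mean scaled FPKM. Of these, eif2b5 and eif4e3 passed the level filter through their higher level in F2 control livers. Their differences from that group are thus not independent of the filter. Both are counted below among the rises in F2 control relative to F1 control livers, and eif4e3 among the F2 mixture falls. The most abundant by FPKM was eef1a1, which encodes the main tRNA carrier of elongation, followed by eef1g at 1410.0, eef2.1 at 1357, eef1d at 1277, eef1b2 at 627 and eif3k at 586. At the median library the deposited limits lay 4.24% of the value to each side for eef1g and 3.77% for eef1d. For eef2.1, at a similar level, they lay at 0.744%. The reason was not tested, so the places of eef1g and eef1d in this order are less certain. The summed FPKM of 58 members with a value in every library was set against the sum of all genes with such values. It made up 1.52% to 1.95% in F2 mixture, 2.30% to 2.74% in F2 control, 1.22% to 1.49% in F1 mixture and 1.16% to 1.58% in F1 control livers. That total leaves out hba1 and alb, without a sound value in 3 and 8 libraries. F2 control livers held the highest share, with no overlap with the other groups. A share also depends on the other genes in the total. Cytosolic ribosomal protein genes in it summed to 483139 to 986335 scaled FPKM in F2 mixture and 405666 to 869368 in F2 control livers. Their sum was 181235 to 579585 in F1 mixture and 124598 to 406636 in F1 control livers. Their part in the share was not tested. The members' summed level itself overlapped in F2, at 13690 to 28306 scaled FPKM in F2 mixture and 19007 to 33419.5 in F2 control livers. eef1a1 alone gave 44.5% to 48.5% of the members' sum in F2 mixture and 49.4% to 55.4% in F2 control livers. The gene mean was highest in F2 control livers for 29 of the 59 members (49.2%, against 35.4% of all genes tested) and lowest in F1 control livers for 34 (57.6%, against 28.5%).

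**Figure D1:**
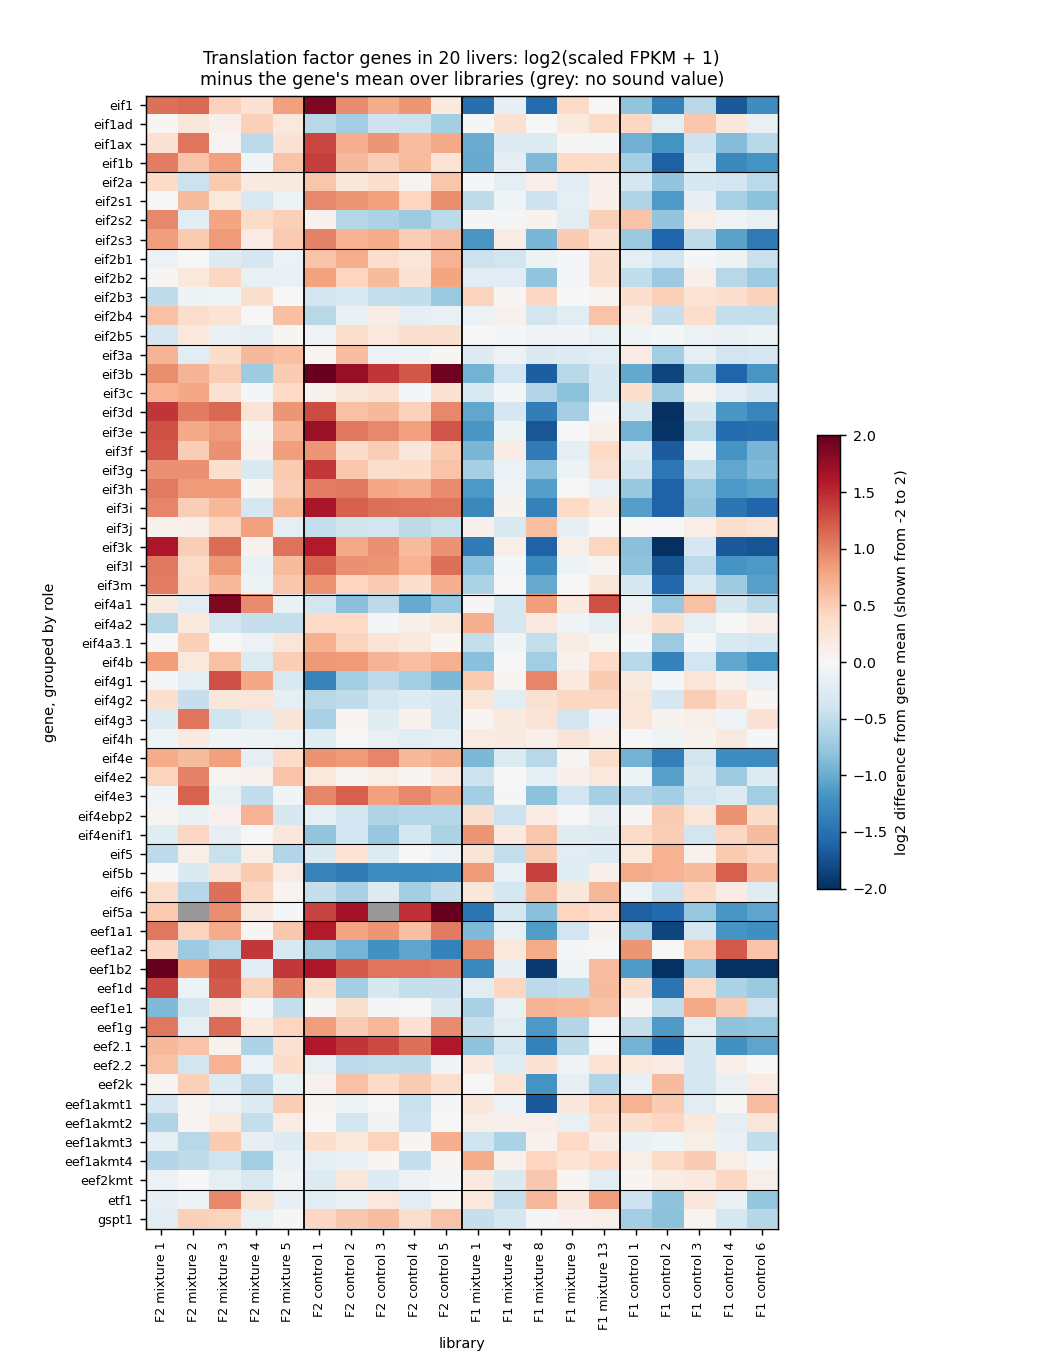
Each row is 1 of 59 genes, grouped by role from eIF1 at the top to the release factors at the bottom, and each column 1 of 20 livers. Colour gives log2(scaled FPKM + 1) minus the gene's mean over the libraries (red higher, blue lower, grey no sound value). Most eIF3 rows and the eef1a1, eef1b2, eef2.1 and eif5a rows are red in F2 control livers and blue in F1 control livers. The eif3a and eif3c rows are mixed. The eif3j, eif5b, eif4g1, eef1a2 and eif1ad rows are blue in F2 control livers.

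Each gene was tested with limma on log2(scaled FPKM + 1) and called at an adjusted p under 0.05 over all 10228 genes, so a log2 difference understates the change of low genes. In F2 mixture livers 18 members were called against F2 control livers (30.5%), beside 25.7% of all genes tested: 11 rose (18.6%, against 11.3% of all genes) and 7 fell (11.9%, against 14.5%). Without F2 mixture 3 the split was 6 rises and 7 falls, and without F2 control 2, 4 or 5 it was 7 rises with 6, 6 and 5 falls. With array weights it was 13 and 12, beside 1576 rises and 2028 falls over all 10228 genes. The groups did not overlap for 12 members (20.3%, beside 15.4% of all genes). Between F1 mixture and F1 control livers 0 members were called, beside 0.0% of all genes, while 14 had an unadjusted p under 0.05 (23.7%, against 12.8% of all genes). In that comparison 45 members had a positive difference (76.3%, against 47.1% of all genes), with a median of 0.30 against -0.02. These differences went with level. At 50 scaled FPKM or more the median was 0.56 for members, against 0.40 for all genes at that level. At 10 to 50 it was 0.14 against -0.01, and under 10 it was 0.01 against -0.04. The members' median was 0.13 without F1 control 2 and 0.19 under quantile normalization. With libraries weighted by limma's array weights, 15 members were called in F1, 13 higher and 2 lower. Over all 10228 genes those weights gave 502 higher and 627 lower in F1, where the main fit called 0.

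The mixture effect itself differed between generations for 15 members (25.4%, beside 20.1% of all genes): it was more positive in F2 than in F1 for 5 (8.47%, against 9.52%) and more negative for 10 (16.9%, against 10.5%). That count fell to 9 without F1 control 4, F1 mixture 9, F1 mixture 13 or F2 mixture 4, and 9 of the 15 calls were kept in each of the 20 fits that left out 1 library. With array weights it was 28, 9 more positive and 19 more negative, beside 1831 and 2033 of all 10228 genes. Of the 18 calls in the F2 mixture comparison, 11 were kept in each of those 20 fits. Without F2 mixture 2, the library apart from its group, 58 members could be fitted. Of these, 12 rose and 9 fell in F2, beside 1416 rises and 1856 falls over 10214 genes. The effects differed for 18 members, 7 more positive and 11 more negative, beside 1277 and 1474 of those genes. In this fit eif4enif1 lost its F2 call (adjusted p = 0.0935). Among the members that gained one was gspt1, at -0.48 (adjusted p = 0.0481).

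The control generations differed at more members. In F2 control livers 41 were called against F1 control livers (69.5%, beside 55.9% of all genes), of which 31 rose (52.5%, against 27.4%) and 10 fell (16.9%, against 28.5%). The groups did not overlap for 36 members (61.0%, beside 41.7% of all genes). In F2 mixture livers 15 were called against F1 mixture livers (25.4%, beside 14.2%), of which 14 rose (23.7%, against 6.06%) and 1 fell (1.69%, against 8.11%). This last count was 2 when only those 10 libraries were fitted, 6 with array weights, and 6, 4, 4 and 8 without F1 mixture 1, F1 mixture 8, F2 mixture 1 and F2 mixture 3. The comparisons share libraries, F2 control in particular, so a level particular to the F2 control livers enters the F2 mixture effect, the difference of effects and the control comparison alike.

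**Figure D2:**
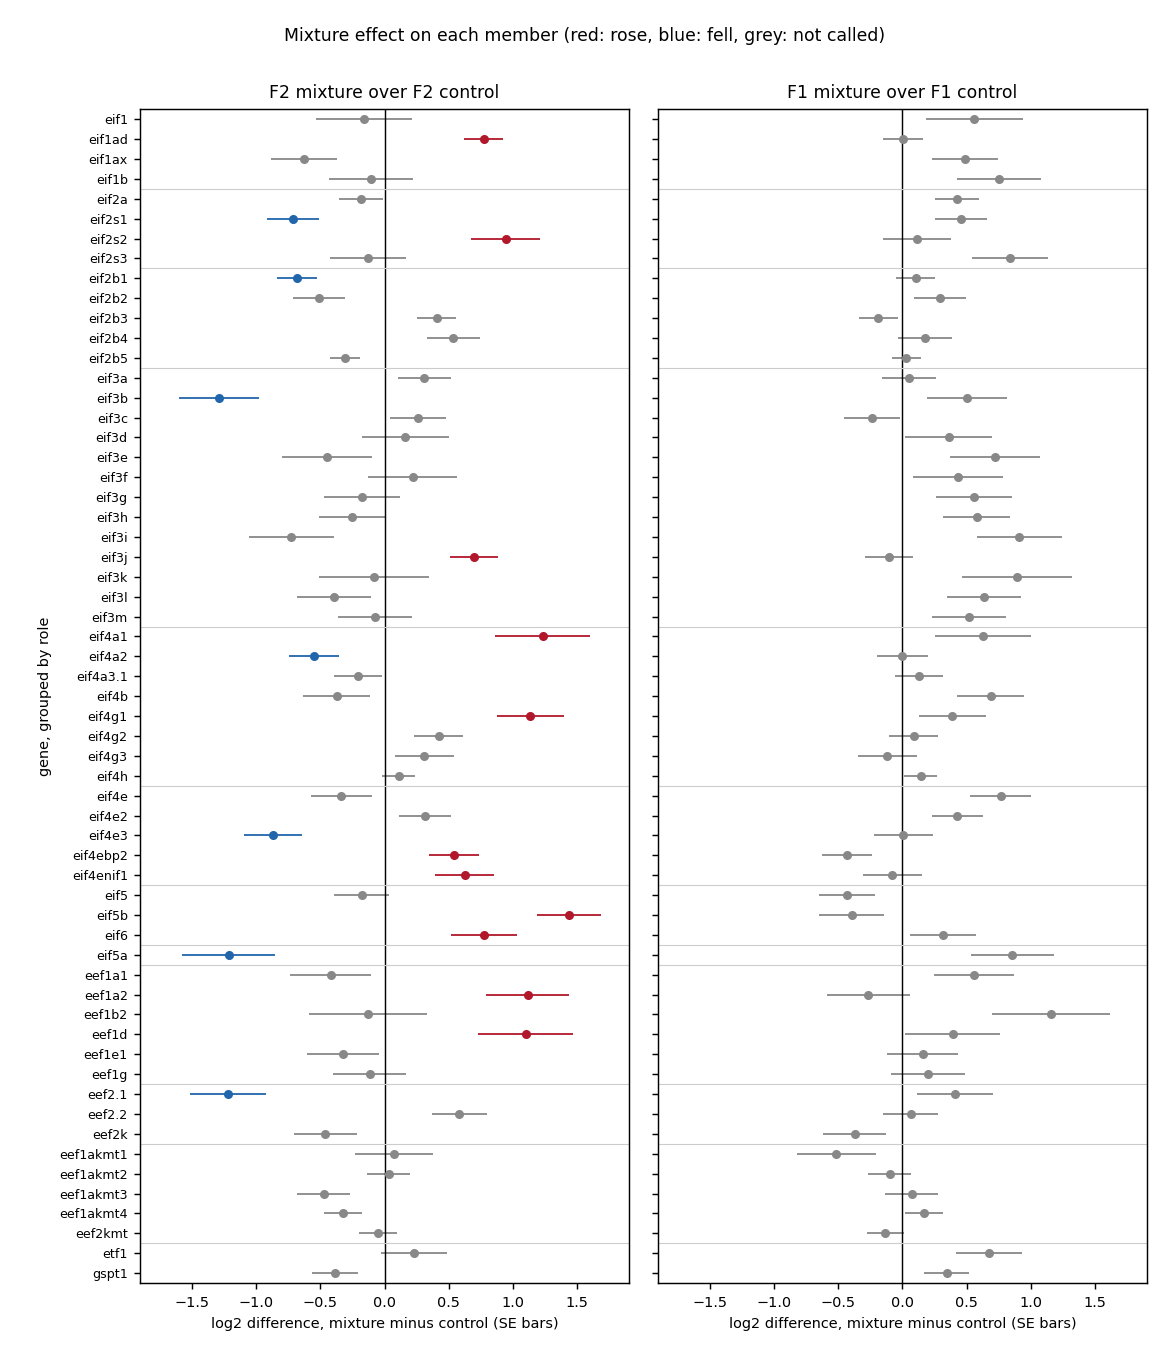
Points are limma log2 differences, mixture minus control, with SE bars, for the 59 genes grouped by role, in F2 (left) and F1 (right). Red points rose, blue points fell and grey points were not called. In F2 the calls ran from -1.29 for eif3b to 1.43 for eif5b, and in F1 none was called.

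The scanning factors moved apart between eif1ad and the rest. eif1ad, an eIF1A-like gene whose human product is tied to maturation of the small ribosomal subunit, rose in F2 mixture livers. It had 8.52, 9.97, 8.88, 11.8 and 9.71 scaled FPKM in F2 mixture livers, against 5.30, 4.70, 5.89, 5.83 and 4.79 in F2 control livers. The groups did not overlap, and the limma log2 difference was 0.77 ± 0.15 (SE, adjusted p = 0.0016). In F1 mixture livers it had 8.04, 10.5, 8.28, 9.60 and 10.97 scaled FPKM, against 11.3, 7.02, 12.4, 9.74 and 7.37 in F1 control livers, which overlapped (0.01 (adjusted p = 0.988) on the log2 scale). The effect was thus more positive in F2 by 0.76 ± 0.22 (SE, adjusted p = 0.0199). The F2 control livers were the low group, at -0.72 relative to F1 control livers (adjusted p = 0.00065). eif1 and its near copy eif1b, which guard start codon choice, and eif1ax, which encodes eIF1A, were not called for the F2 mixture, at -0.16, -0.10 and -0.63. All 3 rose in F2 control livers relative to F1 control livers, by 2.05, 1.70 and 1.66. For eif1ax the mixture effect was lower in F2 than in F1, with a difference of effects of -1.12 ± 0.36 (SE, adjusted p = 0.0361), a call not kept without F2 mixture 3 or 4, F2 control 1 or 3, F1 mixture 4, 9 or 13 or F1 control 1, 2 or 4 (adjusted p up to 0.0725).

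The 3 subunits of eIF2 did not move together in F2. eif2s1, which encodes the alpha subunit that stress kinases phosphorylate (chromosome 8, 119226492 to 119234304 in the UCB_Xtro_10.0 assembly), fell. It had 17.6, 27.8, 20.4, 14.1 and 16.2 scaled FPKM in F2 mixture livers, against 35.0, 33.1, 31.8, 23.9 and 34.3 in F2 control livers. One F2 mixture liver, the second, reached into the F2 control range, and the difference was -0.72 ± 0.20 (SE, adjusted p = 0.0139) by limma. eif2s2, which encodes the beta subunit (chromosome 10, 41339344 to 41349392), rose by 0.94 ± 0.27 (SE, adjusted p = 0.0143). Its levels were 537, 234, 476, 355 and 382 scaled FPKM in F2 mixture livers, against 293, 186, 176, 168 and 191 in F2 control livers. The ranges overlapped through F2 control 1, at 293, which was well above the 168 to 191 of the other F2 control livers. eif2s3, which encodes the GTP-binding gamma subunit, was at -0.13 (adjusted p = 0.778) by limma in that comparison, with 58.3 to 94.0 scaled FPKM in F2 mixture livers and 73.2 to 103 in F2 control livers.

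Per library, the level of eif2s1 divided by that of eif2s2 was 0.0328 to 0.119 in F2 mixture livers, against 0.1196 to 0.181 in F2 control livers. In the first generation it was 0.0444 to 0.0641 in F1 mixture and 0.0272 to 0.0515 in F1 control livers, so the F2 control livers lay above the other 15, with F2 mixture 2 just under them. In F1, eif2s1 had 12.05, 16.5, 12.8, 15.2 and 19.0 scaled FPKM in F1 mixture livers, against 11.1, 7.41, 15.6, 10.8 and 9.45 in F1 control livers. Those ranges overlapped (0.46 (adjusted p = 0.372)), and the F2 effect was lower than the F1 effect, with a difference of -1.17 ± 0.28 (SE, adjusted p = 0.00864). Between generations, eif2s1 and eif2s3 rose in F2 control livers by 1.48 and 1.77, and eif2a, which encodes another initiator tRNA-binding protein, by 0.82. eif2s2 was at -0.41 (adjusted p = 0.196) there by limma and was not called.

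Of the 5 subunits of eIF2B, the factor that reloads eIF2 with GTP, 1 was called for the F2 mixture. eif2b1, which encodes the alpha subunit, had 6.87, 7.64, 6.15, 5.79 and 6.88 scaled FPKM in F2 mixture livers, against 11.8, 13.1, 9.92, 9.17 and 12.8 in F2 control livers. It fell with no overlap, at -0.68 ± 0.15 (SE, adjusted p = 0.00353) in limma. F1 mixture livers had 5.35, 5.62, 6.97, 7.48 and 9.68 scaled FPKM of eif2b1, against 6.59, 5.56, 7.47, 6.98 and 5.30 in F1 control livers, and the effect was lower in F2 than in F1, with a difference of effects of -0.79 ± 0.22 (SE, adjusted p = 0.0173). The catalytic subunit gene eif2b5 missed the threshold in F2 at -0.31 (adjusted p = 0.0515), with 0.573 to 1.30 scaled FPKM in F2 mixture livers and 0.889 to 1.54 in F2 control livers. The other subunits stood at -0.51 (eif2b2), 0.41 (eif2b3) and 0.54 (eif2b4), with adjusted p from 0.053 to 0.0687. These 3 were called with the length trend removed (adjusted p = 0.0447, 0.0465 and 0.0421), where length was inferred from the deposited limits. In F2 control livers relative to F1 control livers eif2b1, eif2b2 and eif2b5 rose by 0.74, 1.06 and 0.32, whereas eif2b3 fell by 0.85 on the log2 scale. eif2b5 passed the level filter only through F2 control livers, at a mean of 1.33 scaled FPKM. Its means were 0.891 in F2 mixture, 0.894 in F1 mixture and 0.855 in F1 control livers. Its rise and its F2 mixture difference are thus not independent of the filter. It was not fitted without F2 control 2, 4 or 5 or F2 mixture 2.

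eIF3, the scaffold of the scanning complex, was the role with the most members. In F2 control livers 10 of its 13 subunits rose relative to F1 control livers, eif3j fell, and eif3a and eif3c were not called. Of all genes tested, 27.4% rose and 28.5% fell there. All subunits but eif3j, at 17.7, had a mean of 50 scaled FPKM or more. Of the 836 genes tested at that level, 40.4% rose and 17.3% fell. The median difference was 1.84 over the 13, against -0.03 over all genes tested. The same 10 to 1 split was found in each of the 20 fits that left out 1 library and under each other scaling tried. In F2 mixture livers 9 subunits rose relative to F1 mixture livers, beside 6.06% of all genes and 11.7% of those at 50 scaled FPKM or more. All 13 differences were positive (46.4% over all genes), and the median was 0.999, against -0.04 over all genes. The count of 9 was 4 without F1 mixture 1, 3 without F1 mixture 8, 3 without F2 mixture 1, 5 without F2 mixture 3 and 1 when only those 10 libraries were fitted. In F1 mixture against F1 control livers 0 were called and 11 of 13 were positive (median 0.52), beside 47.1% positive over all genes. The median of all genes at 50 scaled FPKM or more was 0.40 there.

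eif3b, whose product sits at the mRNA channel of the small subunit (chromosome 9, 31107537 to 31122803), had the largest difference between control generations among the 59. It had 119, 99.9, 87.3, 37.5 and 87.8 scaled FPKM in F2 mixture livers and 249, 208, 168, 147 and 241 in F2 control livers. In the first generation it had 31.4, 47.0, 19.0, 41.7 and 49.4 in F1 mixture livers and 29.9, 16.5, 36.0, 19.7 and 27.1 in F1 control livers. The F2 control livers lay above all other libraries, and the limma difference to F1 control livers was 2.95 ± 0.31 (SE, adjusted p = 1.1e-06). For the mixture, eif3b fell in F2, at -1.29 ± 0.31 (SE, adjusted p = 0.00521), against 0.50 (adjusted p = 0.488) in F1, and the difference of effects, F2 minus F1, was -1.79 ± 0.44 (SE, adjusted p = 0.00903).

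eif3i, which binds beside eif3b, had 125, 88.9, 99.8, 49.8 and 99.7 scaled FPKM in F2 mixture livers and 197, 145, 135, 135 and 134 in F2 control livers. It was not called for the mixture in F2 (-0.73 (adjusted p = 0.109)) or in F1 (0.91 (adjusted p = 0.32)), although its F2 groups did not overlap and it was called as lower with the replicate number as a block (adjusted p = 0.0368), while the difference of effects was -1.64 ± 0.46 (SE, adjusted p = 0.0191). eif3j, a loosely attached subunit, went the other way. Its levels were 18.0, 18.3, 23.3, 30.8 and 15.0 scaled FPKM in F2 mixture livers, against 12.1, 12.7, 12.8, 11.5 and 12.3 in F2 control livers. It rose with no overlap, by 0.69 ± 0.19 (SE, adjusted p = 0.0105), and fell in F2 control relative to F1 control livers by 0.60 on the log2 scale. Its difference of effects, 0.80 ± 0.26 (SE, adjusted p = 0.0389), was not kept in 12 of the 20 fits with 1 library left out (adjusted p up to 0.0767).

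The core subunit gene eif3a had 117, 62.0, 94.1, 115 and 111 scaled FPKM in F2 mixture livers, against 75.2, 112, 68.2, 68.2 and 74.9 in F2 control livers (0.31 (adjusted p = 0.286)). It was called only between the mixture generations, at 0.64 ± 0.21 (SE, adjusted p = 0.0445), and in 6 of the 20 fits with 1 library left out. eif3d, whose product can bind the cap of some mRNAs, had the smallest p of the subunits there, at 1.64 ± 0.34 (SE, adjusted p = 0.00495), with 172 to 389 scaled FPKM in F2 mixture and 54.8 to 139 in F1 mixture livers. eif3h and eif3c followed at 1.14 (adjusted p = 0.00869) and 0.84 (adjusted p = 0.0161). Subunits of this 1 complex differed widely in level: the highest, eif3k, was 41.6 times the lowest, eif3j, in F2 mixture, 72.9 times in F2 control, 20.8 times in F1 mixture and 10.1 times in F1 control livers, by group means.

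**Figure D3:**
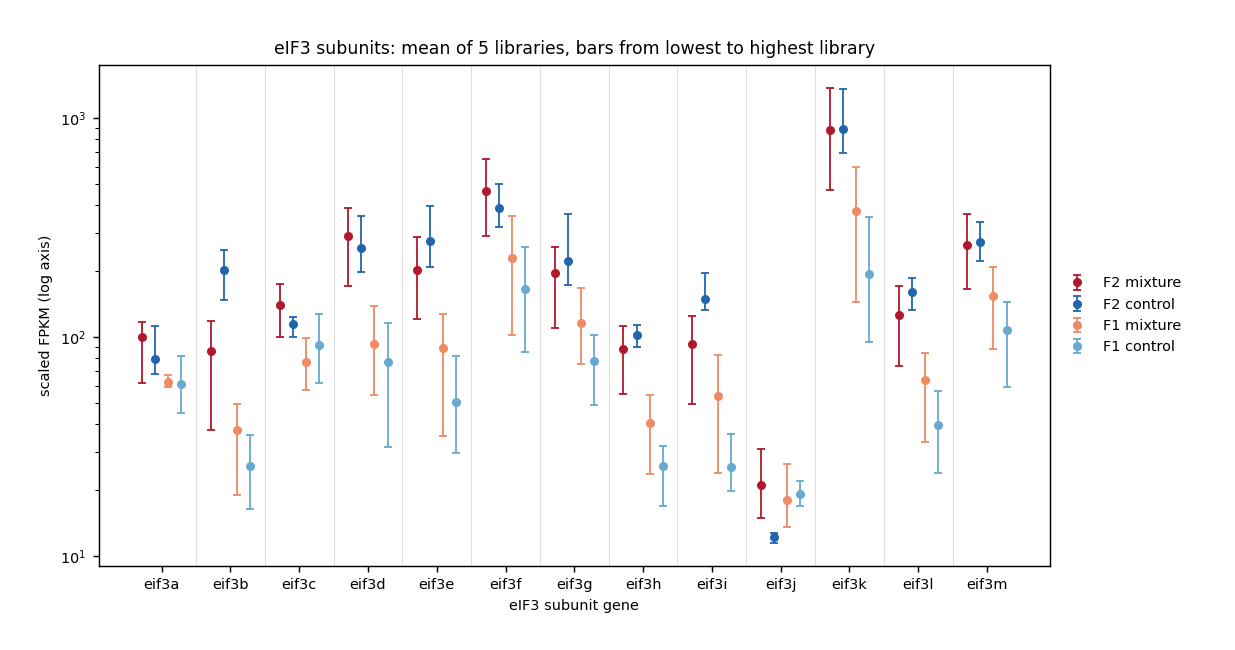
Points are group means of 5 libraries in scaled FPKM on a log axis for the 13 eIF3 subunit genes, with bars from the lowest to the highest library. For eif3b the F2 control livers lie at 147 to 249, above the 37.5 to 119 of F2 mixture livers. For eif3j they lie at 11.5 to 12.8, below every other group.

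Among the eIF4A helicases and their scaffolds, 2 rose and 1 fell in F2 mixture livers. eif4g1, the main scaffold between cap and ribosome (chromosome 5, 99789305 to 99830946), had 13.04, 11.4, 33.7, 23.4 and 10.5 scaled FPKM in F2 mixture livers, against 4.67, 7.80, 8.87, 7.82 and 6.64 in F2 control livers. All F2 mixture livers were above the F2 control livers, F2 mixture 3 and 4 far above, and the limma difference was 1.13 ± 0.26 (SE, adjusted p = 0.00399). In F1, eif4g1 had 19.4, 13.8, 27.0, 15.3 and 19.6 in F1 mixture livers and 15.1, 12.99, 15.8, 14.2 and 11.9 in F1 control livers (0.39 (adjusted p = 0.519)). The same libraries were highest for eif4a1, which encodes the helicase that unwinds the mRNA leader. It had 67.3, 50.3, 217, 115 and 53.4 scaled FPKM in F2 mixture livers, against 45.2, 32.6, 40.8, 28.8 and 34.2 in F2 control livers. The groups did not overlap and eif4a1 rose by 1.23 ± 0.37 (SE, adjusted p = 0.0203), but not without F2 mixture 3 or 4 (adjusted p up to 0.0641).

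eif4a2, a close paralogue of eif4a1, fell, at -0.55 ± 0.20 (SE, adjusted p = 0.0459), with 13.9 to 24.3 scaled FPKM in F2 mixture livers and 20.7 to 28.1 in F2 control livers. The ranges overlapped, and the call was kept in 7 of the 20 fits with 1 library left out (adjusted p up to 0.101). Reads shared between these paralogues could have been split by the authors' counting. Per library, eif4a1 was 2.07 to 13.5 times eif4a2 in F2 mixture livers, against 1.16 to 1.97 times in F2 control livers. The other scaffolds eif4g2, which lacks the eIF4E-binding part, and eif4g3 were not called, at 0.42 and 0.31, nor were the helicase cofactors eif4b and eif4h, at -0.37 and 0.11, or eif4a3.1, of the exon junction helicase family, at -0.21. eif4b rose in F2 control relative to F1 control livers by 1.65, while eif4g1 and eif4g2 fell by 0.90 and 0.54 on the log2 scale, eif4g2 not without F2 control 1 or F1 control 3 or 4 (adjusted p up to 0.059).

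The cap-binding protein gene eif4e had the smallest p of the 59 in F1. Its levels were 5.76, 9.46, 7.60, 11.9 and 15.0 scaled FPKM in F1 mixture livers, against 5.59, 3.88, 8.80, 4.34 and 4.30 in F1 control livers. The ranges overlapped, and at 0.76 ± 0.24 (SE, adjusted p = 0.245) it was not called. In F2, eif4e had 20.2, 18.6, 21.3, 10.2 and 15.4 in F2 mixture livers and 22.6, 21.8, 23.7, 18.7 and 19.97 in F2 control livers (-0.34 (adjusted p = 0.31)). Its difference of effects was -1.10 ± 0.34 (SE, adjusted p = 0.0273), not kept without F2 mixture 4, F1 mixture 9 or 13 or F1 control 2 or 4 (adjusted p up to 0.0569). eif4e rose in F2 control relative to F1 control livers by 1.85 ± 0.24 (SE, adjusted p = 6.07e-06).

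The inhibitor gene eif4ebp2, whose product holds eIF4E away from eIF4G and which was the sole eIF4E-binding protein gene of that family among the 63 names, ran against it. It had 8.54, 7.40, 8.75, 13.8 and 6.38 scaled FPKM in F2 mixture livers, against 7.01, 6.07, 5.02, 5.19 and 5.20 in F2 control livers. It rose by 0.54 ± 0.20 (SE, adjusted p = 0.0469) with overlapping ranges, was at adjusted p = 0.0648 with the replicate number as a block, and kept its call in 8 of the 20 fits with 1 library left out (adjusted p up to 0.152). Its difference of effects between generations was 0.98 ± 0.28 (SE, adjusted p = 0.0189) and was kept in all 20. The ratio of eif4e to eif4ebp2 was 0.740 to 2.51 in F2 mixture livers, against 3.22 to 4.72 in F2 control livers, and 0.549 to 2.098 in F1 mixture livers, against 0.270 to 0.891 in F1 control livers. It was thus lower in mixture than control livers in F2 with no overlap, and its range reached higher in mixture than control livers in F1, with overlap.

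eif4enif1, which encodes the eIF4E transporter of P-bodies, rose by 0.62 ± 0.23 (SE, adjusted p = 0.0497) with no overlap, at 11.1 to 17.9 scaled FPKM in F2 mixture livers and 7.24 to 10.2 in F2 control livers, a call kept in 6 of the 20 fits (adjusted p up to 0.0996). eif4e3, a low-level relative of eif4e, had 1.04, 3.81, 0.922, 0.519 and 1.06 scaled FPKM in F2 mixture livers, against 3.18, 3.89, 2.76, 3.15 and 2.73 in F2 control livers. The second F2 mixture liver lay within the F2 control range, and eif4e3 fell, at -0.87 ± 0.23 (SE, adjusted p = 0.00882). By group mean it was at 3.14 scaled FPKM in F2 control, 1.47 in F2 mixture, 0.517 in F1 mixture and 0.489 in F1 control livers. It thus passed the level filter through the F2 control livers, so this call is not independent of the filter. Its deposited limits were wide, at up to 81.6% of the value on each side. eif4e2, a cap-binding repressor, was at 0.31 (adjusted p = 0.259).

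The largest F2 mixture difference by limma was that of eif5b, the GTPase of subunit joining (chromosome 2, 112606062 to 112629922). The F2 mixture mean over the F2 control mean was larger for eef1a2, at 4.01, than for eif5b, with means of 26.0 and 8.83 scaled FPKM. eif5b had 23.3, 18.7, 28.0, 33.7 and 26.1 scaled FPKM in F2 mixture livers, against 8.56, 8.14, 9.26, 8.996 and 9.20 in F2 control livers. Every F2 mixture liver exceeded every F2 control liver, the F2 control livers lay within a narrow band, and eif5b rose by 1.43 ± 0.25 (SE, adjusted p = 0.000598). F1 mixture livers had 42.4, 20.9, 61.1, 19.5 and 25.0, against 39.4, 38.3, 36.6, 54.4 and 36.1 in F1 control livers. Those overlapped (-0.39 (adjusted p = 0.502)), and the difference of effects was 1.83 ± 0.35 (SE, adjusted p = 0.00253). F2 control livers were again apart from F1 control livers, at -2.08 ± 0.25 (SE, adjusted p = 3.52e-06), while the mixture generations differed by -0.25 (adjusted p = 0.524).

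eif6, whose product keeps free large subunits from joining, rose by 0.77 ± 0.26 (SE, adjusted p = 0.0326). It had 33.1, 17.2, 56.4, 34.8 and 26.8 scaled FPKM in F2 mixture livers, against 18.4, 16.1, 21.5, 15.8 and 18.6 in F2 control livers. The ranges overlapped, and the call was not kept without F2 mixture 1, 3 or 4 or F2 control 1, 2, 4 or 5 (adjusted p up to 0.102). eif5, which encodes the GTPase activator of eIF2, was at -0.18 (adjusted p = 0.568) in F2 and -0.43 (adjusted p = 0.404) in F1 and was called in no comparison.

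eif5a, which encodes the hypusine-bearing factor that helps ribosomes past difficult stretches, had no sound value in 1 library of each F2 group. It had 103, 138, 81.0 and 69.5 scaled FPKM in 4 F2 mixture livers, against 183, 229, 198 and 285 in 4 F2 control livers. It fell without overlap, at -1.21 ± 0.36 (SE, adjusted p = 0.0197), a call not kept without F2 mixture 4 or 5 or F2 control 5 (adjusted p up to 0.0597). In F1 it had 25.4, 55.6, 39.7, 96.7 and 90.8 in F1 mixture livers, against 22.4, 23.7, 42.1, 31.2 and 33.9 in F1 control livers (0.86 (adjusted p = 0.334)). The difference of effects, -2.07 ± 0.48 (SE, adjusted p = 0.00797), was the most negative of the 59. eif5a over eif5b was 2.41 to 4.91 in F2 mixture livers, against 21.4 to 31.0 in F2 control livers, and 0.598 to 4.97 in F1 mixture livers, against 0.568 to 1.15 in F1 control livers. Since eif5a fell and eif5b rose in F2, each without overlap, the separation of this ratio in F2 follows from theirs.

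**Figure D4:**
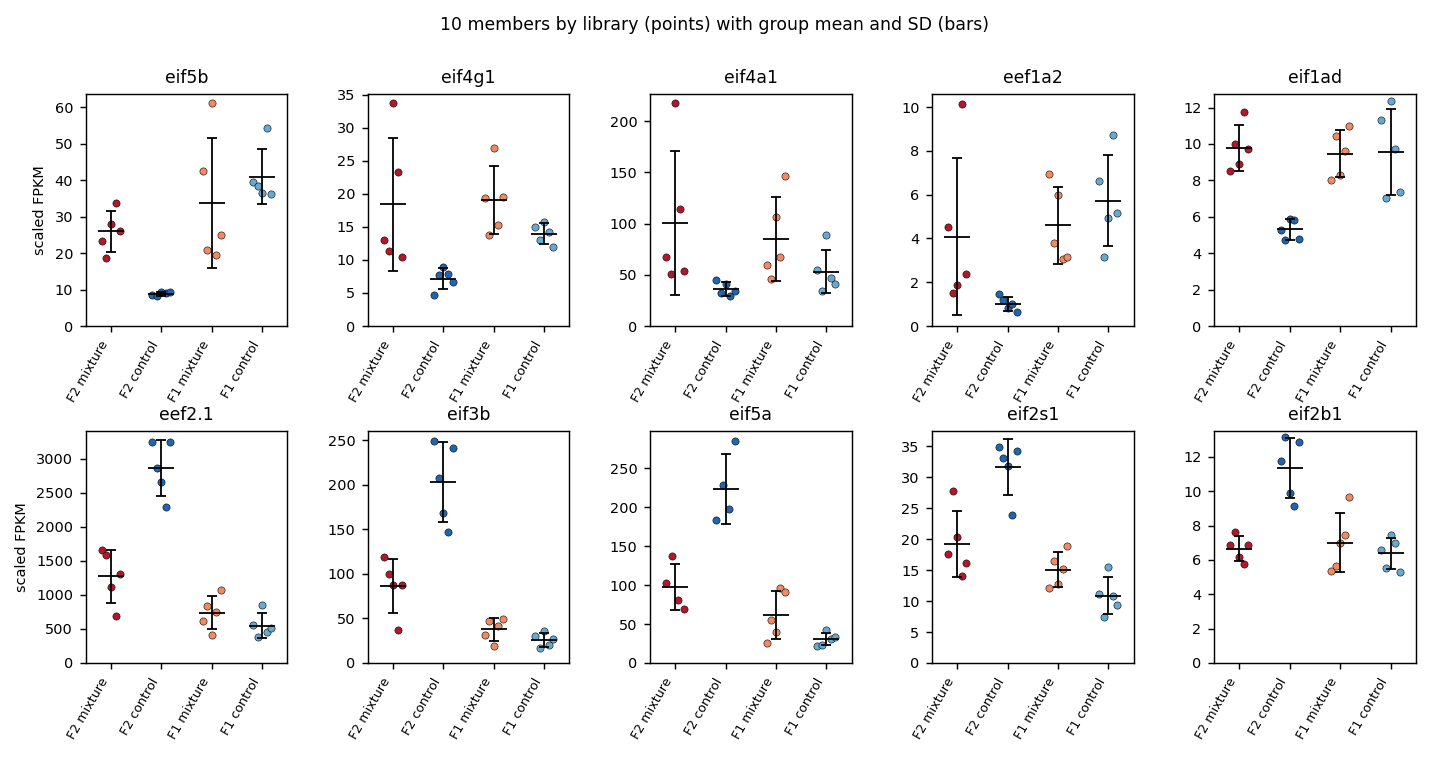
Points are single livers in scaled FPKM, each axis starting at 0, with the group mean and SD as bars, for 10 genes in F2 mixture, F2 control, F1 mixture and F1 control livers (4 points in each F2 group for eif5a). The upper genes are lowest in F2 control livers (eif5b 8.14 to 9.26) and the lower genes highest there (eef2.1 2291 to 3248).

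For the eEF1 carrier, the abundant and the rare form differed. eef1a1 (chromosome 5, 91802579 to 91805404) had 12917, 8420.4, 10347, 6259.7 and 8995 scaled FPKM in F2 mixture livers and 18504, 10679, 11426, 9405 and 12776 in F2 control livers. F1 mixture livers had 3367, 5554, 2843, 4765 and 6500.5 and F1 control livers 3880.2, 1731, 4904, 2742 and 2640.2. The mixture groups overlapped their controls in both generations (-0.42 (adjusted p = 0.341) in F2, 0.56 (adjusted p = 0.455) in F1). Under quantile normalization eef1a1 was called as lower in F2, at -0.89 (adjusted p = 7.72e-05), was at -0.13 in F1, and had a difference of effects of -0.77 (adjusted p = 0.0054, against 0.122 with the median-ratio scaling). eef1a1 rose in F2 control relative to F1 control livers by 2.03 ± 0.31 (SE, adjusted p = 3.3e-05) and in F2 mixture relative to F1 mixture livers by 1.05 ± 0.31 (SE, adjusted p = 0.0316). The mixture-line call was at adjusted p = 0.393 under quantile normalization and was not kept without F2 mixture 1 or 3 or F1 mixture 1 or 8 (adjusted p up to 0.0836).

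eef1a2, in mammals the form of muscle and neurons, was a low gene that rose in F2. It had 4.53, 1.51, 1.87, 10.1 and 2.38 scaled FPKM in F2 mixture livers, against 1.48, 1.18, 0.807, 0.993 and 0.635 in F2 control livers. The ranges did not overlap, F2 mixture 4 was far above the rest, and the difference was 1.11 ± 0.32 (SE, adjusted p = 0.0166). In F1 it was at 4.596 ± 1.77 scaled FPKM in F1 mixture livers and 5.73 ± 2.08 in F1 control livers (SD, n = 5 each, -0.26 (adjusted p = 0.741)). It fell in F2 control relative to F1 control livers by 1.70 on the log2 scale (adjusted p = 0.000234).

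Of the exchange complex that reloads eEF1A, eef1d rose in F2 mixture livers. Its levels were 2829, 1058, 2641, 1561 and 2255 scaled FPKM in F2 mixture livers, against 1449, 703, 909, 813 and 822 in F2 control livers. F2 control 1 stood apart at 1449 against 703 to 909 in the other F2 control livers, the ranges overlapped, and the difference of 1.10 ± 0.37 (SE, adjusted p = 0.0352) was not kept without F2 mixture 1, 3 or 5 or F2 control 2, 3, 4 or 5 (adjusted p up to 0.0843). The partner subunit gene eef1b2 had 1839, 741, 1032, 368 and 1137 in F2 mixture livers and 1305, 1002, 895, 899 and 873 in F2 control livers (-0.13 (adjusted p = 0.862)). In F1 it had 173, 379, 112, 408 and 655 in F1 mixture livers and 195, 78.9, 248, 86.5 and 106 in F1 control livers, at 1.16 ± 0.46 (SE, adjusted p = 0.355), the largest positive F1 difference of the 59, not called. Per library, eef1d over eef1b2 was 1.43 to 4.24 in F2 mixture livers, against 0.702 to 1.11 in F2 control livers, without overlap. eef1b2 and eef1g rose in F2 control relative to F1 control livers by 2.92 and 1.33, and in F2 mixture relative to F1 mixture livers by 1.64 and 1.01. eef1g, the anchoring subunit, was not called for the mixture (-0.12 in F2, 0.20 in F1), nor was eef1e1, whose product sits in the tRNA synthetase complex (-0.32 in F2).

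The pair of eEF2 genes parted. eef2.1, the abundant one (chromosome 1, 93108609 to 93121186), had 1666, 1590.2, 1116, 696 and 1314 scaled FPKM in F2 mixture livers, against 3248, 2874, 2663, 2291 and 3248 in F2 control livers. It fell with no overlap, at -1.22 ± 0.29 (SE, adjusted p = 0.00517). F1 mixture livers had 612, 843, 419, 749 and 1067 scaled FPKM, against 552, 376, 851, 461 and 513 in F1 control livers, which overlapped (0.41 (adjusted p = 0.543)). The difference of effects was -1.63 ± 0.41 (SE, adjusted p = 0.011), at adjusted p = 0.0701 under quantile normalization. eef2.2 was at 110.5 ± 33.1 scaled FPKM in F2 mixture and 71.4 ± 11.7 in F2 control livers (SD, n = 5 each), a difference that missed the threshold (0.58 (adjusted p = 0.0524)) but was called under quantile normalization and with the length trend removed (adjusted p = 0.0308 and 0.0295). The ratio of eef2.1 to eef2.2 was 7.60 to 22.7 in F2 mixture livers, against 36.4 to 46.0 in F2 control livers, and 3.80 to 11.1 in F1 mixture livers, against 3.75 to 11.9 in F1 control livers. Reads shared between these copies could be split by the counting. eef2k, the kinase that blocks eEF2, had 2.54 to 6.06 scaled FPKM in F2 mixture livers and 4.41 to 6.64 in F2 control livers and was not called (-0.46 (adjusted p = 0.171) in F2, -0.37 (adjusted p = 0.515) in F1).

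The 5 methyltransferase genes had mean levels from 1.19 (eef2kmt) to 9.38 (eef1akmt1) scaled FPKM, and none was called for the mixture. eef1akmt4, which modifies eEF1A, was the single member that fell in F2 mixture relative to F1 mixture livers. It had 0.973, 1.09, 1.26, 0.845 and 1.73 scaled FPKM in F2 mixture livers, against 3.97, 2.17, 2.99, 2.60 and 2.92 in F1 mixture livers. The ranges did not overlap and the difference was -0.85 ± 0.15 (SE, adjusted p = 0.00231). The other 4 had F2 mixture differences from -0.47 (eef1akmt3) to 0.07 (eef1akmt1).

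Of the release factors, etf1, which encodes the stop codon reader eRF1, had 7.21, 7.65, 17.0, 10.01 and 7.28 scaled FPKM in F2 mixture livers and 6.91, 7.39, 9.67, 6.94 and 8.49 in F2 control livers (0.23 (adjusted p = 0.548)). The third F2 mixture liver was the highest of these. gspt1, which encodes its GTPase partner eRF3, was at -0.39 (adjusted p = 0.112) in F2 and 0.34 (adjusted p = 0.417) in F1, and its difference of effects was -0.73 ± 0.25 (SE, adjusted p = 0.0441), a call kept in 6 of the 20 fits with 1 library left out. It rose in F2 control relative to F1 control livers by 0.97 ± 0.18 (SE, adjusted p = 0.000145), where etf1 was at 0.32 (adjusted p = 0.305).

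The generation differences went with level, in bands chosen after the values were seen. Of 25 members with a mean of 50 scaled FPKM or more, 19 rose in F2 control relative to F1 control livers (76.0%, against 40.4% of 836 genes tested at that level) and 0 fell (0.0%, against 17.3%). Of the 34 lower members, 12 rose and 10 fell. Under 10 scaled FPKM, 35.3% of members rose and 29.4% fell, against 25.7% and 28.5% of all genes at that level. At 10 to 50, the members' shares were again 35.3% and 29.4%, against 28.0% and 32.6%. The members that fell were at 2.08 to 30.3 mean scaled FPKM, those that rose at 0.994 to 7433. Between the mixture generations 13 of those 25 rose (52.0%, against 11.7% of genes at that level). For the F2 mixture against F2 control, 3 of the 25 rose and 3 fell (12% each, against 10.5% and 8.25%).

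**Figure D5:**
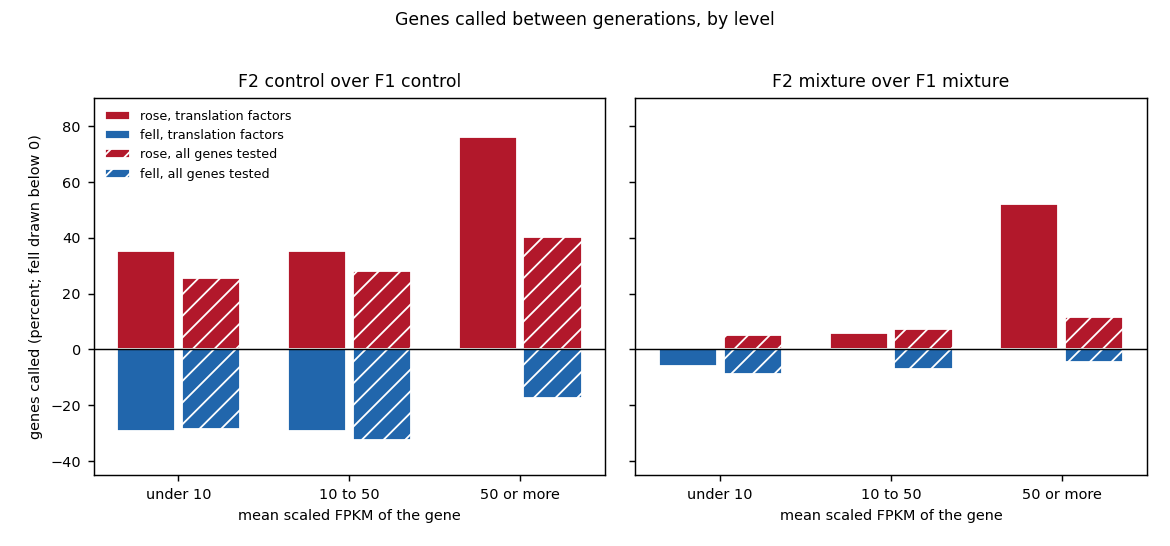
Bars give the percent of genes that rose (above 0) or fell (below 0) between generations, in control livers (left) and mixture livers (right), by mean scaled FPKM of the gene. Solid bars are the translation factors (17, 17 and 25 genes) and hatched bars all genes tested. At 50 or more, 76.0% of the factors rose in F2 control relative to F1 control livers.

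The other genes of the pathway, from lists chosen with earlier results known, moved unevenly. Of all genes tested, 27.4% rose and 28.5% fell between control generations, and 6.06% and 8.11% between mixture generations. For the F2 mixture 11.3% rose and 14.5% fell. No list was tested against these shares. Of 74 tested cytosolic ribosomal protein genes, 57 rose and 0 fell in F2 control relative to F1 control livers (median 1.51), though under quantile normalization 34 rose and 20 fell (median 0.23). In F2 mixture relative to F1 mixture livers 25 rose and 0 fell (median 1.12), against 15 and 2 under quantile normalization, 10 and 0 with array weights and 65 and 1 with the length trend removed. That 25 was 2 without F1 mixture 1 or F1 mixture 8, 4 without F2 mixture 1, 7 without F2 mixture 3, 40 without F1 mixture 13 and 3 with only those groups fitted. For the F2 mixture 4 rose and 1 fell, against 25 and 3 with the replicate number as a block, 15 and 2 with array weights, 14 and 4 with the length trend removed and 14 and 7 under quantile normalization. With 1 library left out the rises in F2 ran from 1 to 7. In F1 mixture livers 0 were called and all 74 differences were positive (median 0.68, or 0.05 under quantile normalization), while with array weights 36 rose and 0 fell (median 1.05). For the translation factors the scalings gave closer counts, with 29 rising and 12 falling between control generations under quantile normalization and 27 and 15 with no scaling, which moved the median of all genes to -0.22. Of the called ribosomal genes, rpl23 rose, at 27203 ± 9328 scaled FPKM in F2 mixture livers against 10636 ± 2449 in F2 control livers (SD, n = 5 each, limma log2 difference 1.30, adjusted p = 0.00889). rpl7 fell by 1.47 on the log2 scale.

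The calls of the next 3 lists in F2 stand beside 11.3% rises and 14.5% falls over all genes. Of 13 tested genes for mRNA binding and recycling, 4 rose and 0 fell in F2 mixture livers. abcf1, an ABC protein that stimulates eIF2, was at 22.5 ± 1.41 scaled FPKM in F2 mixture livers against 8.22 ± 1.27 in F2 control livers (SD, n = 5 each, limma log2 difference 1.36, adjusted p = 0.000812). paip2b, an inhibitor of the poly(A)-binding protein, and ddx3x, an RNA helicase of initiation, rose by 0.62 and 1.06. Of 12 tested signalling genes, 3 rose and 2 fell. mknk1, which encodes a kinase of eIF4E, fell by 0.68, while tsc1, a brake on mTOR, and mlst8, an mTOR subunit, rose by 0.68 and 0.56. Of 10 tested eIF2 kinase and stress genes, 0 rose and 2 fell: impact, an inhibitor of the kinase GCN2, by 0.69 and ppp1r15b, which directs a phosphatase to eIF2 alpha, by 0.77 on the log2 scale.

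Of 6 tested mitochondrial factors, 2 rose and 1 fell in F2, where 11.3% of all genes rose and 14.5% fell. tufm, the mitochondrial relative of eEF1A, was at 21.7 ± 2.15 scaled FPKM in F2 mixture livers against 10.9 ± 1.40 in F2 control livers (SD, n = 5 each, limma log2 difference 0.93, adjusted p = 0.00263), mtrf1l, a release factor, rose by 1.04 and mtif3, an initiation factor, fell by 0.67. Of 20 tested cytosolic tRNA synthetase genes, aimp1 rose by 0.87 and iars1 fell by 0.69. Of 7 tested genes that modify eIF5A and eEF2, 0 were called by limma in F2. Between control generations these lists gave, as rises and falls in F2 control relative to F1 control livers, 2 and 5 of 13 for mRNA binding and recycling, 4 and 4 of 12 for signalling, 1 and 2 of 10 for eIF2 kinases and stress, 1 and 4 of 6 for mitochondrial factors, 8 and 2 of 20 for tRNA synthetases, and 3 and 1 of 7 for modifiers. Of all genes tested, 27.4% rose and 28.5% fell there.

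Some markers of cell types were called in these comparisons as well. Of all genes tested, 25.7% were called for the F2 mixture and 55.9% between control generations, and the marker counts were not tested against these shares. The part of cell types in the results was not tested. Of 8 tested erythrocyte genes, 4 rose and 0 fell in F2 control relative to F1 control livers, and their summed level was 894 to 5696 scaled FPKM in F2 mixture, 2131 to 6042 in F2 control, 317 to 4594 in F1 mixture and 602 to 1097 in F1 control livers, without hba1, which had no sound value in 3 libraries. F2 control livers did not overlap F1 control livers. Of 11 tested hepatocyte genes, 0 rose and 3 fell in F2 mixture livers (fga, fgb and tf), and 4 rose and 1 fell in F2 control relative to F1 control livers. Macrophage genes (5 tested) gave 0 and 1 called higher and lower for the F2 mixture, bile duct genes (4) 0 and 1, endothelial genes (3) 0 and 2, and stellate genes (4) 2 and 0. The sums in F2 mixture and F2 control livers were 54.9 to 159 and 91.2 to 254 for macrophage, 253 to 676 and 271 to 553 for bile duct, 9.06 to 18.2 and 17.1 to 27.2 for endothelial, and 55.6 to 112 and 38.9 to 76.7 for stellate genes.

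The 4 matching genes under the level filter were eef1a1o, eef1aknmt, eif2d and eif4e1b. eef1a1o, the oocyte form of eEF1A, was listed at 0 in 10 libraries. It was highest in F1 control 6 at 3.02 scaled FPKM, F1 mixture 8 at 2.12, F2 control 5 at 1.64 and F1 mixture 4 at 0.732. eif4e1b, the oocyte form of eIF4E, was highest in those libraries as well, at 2.33, 1.89, 1.08 and 1.45 scaled FPKM, and at 0.321 or less in the other 16. The egg coat gene zp4 was also highest in these 4, at 1.82, 1.44, 1.63 and 0.430. So were the ovary genes zp2, dazl, figla and bmp15, at 0.411 scaled FPKM or less. The other ovary genes, zpd, ddx4, ybx2, zar1 and gdf9, did not have these 4 as their highest libraries. For example, ddx4 was highest in F1 control 1 at 1.75 and zar1 in F2 mixture 2 at 2.06. Summed over 12 ovary genes, eef1a1o and eif4e1b included, the level was 3.31 to 5.95 scaled FPKM in F2 mixture, 0.826 to 7.24 in F2 control, 1.39 to 14.3 in F1 mixture and 2.51 to 16.7 in F1 control livers.

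The authors' deposited table for F2 marked 11 of the 59 members, beside 2204 of its 15202 lines. Of the 11, 7 were higher and 4 lower in mixture livers, and limma called all 11 in the same direction. The most abundant member, eef1a1, was not tested by the authors in F2. Of the 18 limma calls, eef1d, eif2b1, eif2s1, eif2s2, eif4a2, eif4ebp2 and eif4enif1 were not marked there. The authors' deposited table for F1 marked 1 member, eef1b2, as higher in mixture livers, beside 268 of its 15201 lines.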

How the data were processed

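Per the labels, liver RNA of each female was sequenced as 75 bp reads. The submitters' processing notes list Trimmomatic 0.32.1, HISAT2, Cufflinks 0.0.7 and Cuffdiff 0.0.7. The authors deposited FPKM per gene with lower and upper limits in the same unit. Per the file headers, their 2 Cuffdiff tables give group means in FPKM, the log2 fold change between them, a test statistic (a score), and p-values with q-values, and were used only where the authors' deposited table is named. The genome build was not given in the sources used here. Starts and ends of 99.0% of the 20372 named genes equal those of UCB_Xtro_10.0, used for coordinates, counted from 1. The 70 unnamed lines of each library's table were left out.

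FPKM marked unsound were set to missing. Each library was divided by the median ratio to the geometric mean over 6971 genes. log2(scaled FPKM + 1) was fitted, for the 10228 genes whose mean reached 1 FPKM, in limma 3.58.1 (R 4.3.3), with 1 model of 4 group means over 20 libraries, a variance trend, two-sided tests and Benjamini-Hochberg adjustment over all genes. The values are not counts, and the low values gave whole fragments within 0.05 for only 34.1% to 37.7% of genes, so no count test was run. The median deposited half-width was 5.74% of a member's value, read as counting error only. For eef1g it stayed at 4.19% to 4.44% while the level ran from 564 to 2728 scaled FPKM. For eif2s2 it stayed at 4.35% to 4.79% from 159 to 537 scaled FPKM. Counting error would narrow as the level rises, so that reading is doubtful for these genes. The length trend removed in an alternative fit used relative lengths inferred from the same limits, as fragments per FPKM. No transcript lengths were used. The inferred log2 lengths of eef1g and eif2s2, -5.30 and -3.18, are thus doubtful as well. The fit was tested on simulated data. Members, lists, gene pairs for ratios and tests were chosen with earlier results of these data known. How often ratios of other gene pairs separate the groups was not tested. Genes named were the members called in the F2 mixture comparison, those with the smallest p in the others, the 6 most abundant and a list of core factors, and in other lists up to 3 called in F2. Others were named to account for every role.

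The replicate number was used as a block in an alternative fit only, and the main model had no pairing. In F2, same-numbered deviations correlated at 0.385, 0.369, 0.154, 0.104 and 0.169. Differently numbered ones ran from -0.48 (F2 mixture 1 with F2 control 2) to 0.166 (F2 mixture 3 with F2 control 5). These values do not settle whether the numbers mark pairs. In F1 the shared numbers 1 and 4 gave -0.016 and -0.188. No sequence is shown because none was used here.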

Additional observations from a re-analysis of the deposited data

Results flagged for a closer look

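Single libraries lay far from the other 4 of their group for 10 of the 156 combinations of a named gene and a group that were examined, where chance alone gives about 1 in 20. The combinations share libraries and are not independent, and the count was not tested against that rate. F2 control 1 was the high one for eef1d at 1449 scaled FPKM against 703 to 909 in the other F2 control livers, for eif2s2 at 293 scaled FPKM against 168 to 191, for eif3i at 197 scaled FPKM against 134 to 145 and for eif3k at 1349 scaled FPKM against 694 to 844. F2 control 2 was high for eif3a at 112 scaled FPKM against 68.2 to 75.2, and F2 control 4 was low for eif2s1 at 23.9 scaled FPKM against 31.8 to 35.0. F2 mixture 2, which correlated least with its group, was high for eif4a2 at 24.3 scaled FPKM against 13.9 to 16.1 in the other F2 mixture livers and for eif4e3 at 3.81 scaled FPKM against 0.519 to 1.06. F2 mixture 3 was high for etf1 at 17.0 scaled FPKM against 7.21 to 10.01, and F1 control 4 for eif5b at 54.4 scaled FPKM against 36.1 to 39.4.

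The effect of the mixture differed between F2 and F1, by the limma test of the difference itself, for 15 members. It was more positive in F2 for eif5b (1.83 on the log2 scale), eef1a2 (1.38), eif4ebp2 (0.98), eif3j (0.80) and eif1ad (0.76). It was more negative in F2 for eif5a (-2.07), eif3b (-1.79), eif3i (-1.64), eef2.1 (-1.63), eif2s1 (-1.17), eif1ax (-1.12), eif4e (-1.10), eif4b (-1.06), eif2b1 (-0.79) and gspt1 (-0.73). For eef1a2, eif1ax, eif3j, eif4b, eif4e and gspt1 the call was lost in at least 1 of the 20 fits that left out a library, with adjusted p up to 0.078, 0.0725, 0.0767, 0.0984, 0.0569 and 0.087 in that order.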

How the results depend on the processing

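The count of called members in F1 was 0 in each fit that left out a library and 15 with array weights. In F2 it was 18, 25 with array weights and 12 to 21 with a library left out. For the difference of effects it was 15, 28 with array weights and 9 to 20 with a library left out. Between control generations it was 41, 44 with array weights and 38 to 41 with a library left out. Between mixture generations it was 15, 6 with array weights, 2 with only those groups fitted and 4 to 19 with a library left out. Array weights also changed the counts over all 10228 genes, to 502 rises and 627 falls in F1 and 1576 and 2028 in F2. Between mixture generations they became 333 and 451. The causes were not tested. With the replicate number as a block 18 members were called in F2, 10 higher and 8 lower, and 0 in F1, where only 4 libraries share a number. In F2 the block moved eif4ebp2 to an adjusted p of 0.0648, gave eif3i a call (adjusted p = 0.0368) and left the other 17 calls in place.

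With no scaling of libraries the F2 calls of eif3j, eif4a2, eif4ebp2 and eif4enif1 were lost (adjusted p = 0.0598, 0.0965, 0.157 and 0.216). Of 1928 refits over 70 results for single genes, 1815 kept direction and side of the threshold, 75 lost a call in 11 results, 17 gained one and 21 turned sign, none of them called. Results not called in the main fit were among the 70 and could not lose a call. Of all 15 member calls between mixture generations, 11 were lost in at least 1 fit that left out a library. The same held for 6 of 15 differences of effects, 7 of 18 calls in F2 and 5 of 41 between control generations (1 of them not fitted). Under quantile normalization the F1 difference became -0.13 for eef1a1, -0.27 for eef1g, -0.021 for eef1d and -0.070 for eif3a, and the F2 difference 0.13 for eef1g and 0.015 for eif3k. With array weights the F2 difference became 0.017 for eef1g, 0.017 for eef1b2 and 0.10 for eif3k. With the length trend removed eef1g, for which the inferred length is doubtful, was at -0.13 in F1. With no scaling eif2b5 and eif3a were at -0.024 and -0.062 in F1. With the block eif3a, eif6 and eef2k were at -0.085, -0.093 and 0.28 in F1. With a library left out the F2 difference ran between -0.26 and 0.059 for eef1g, -0.39 and 0.19 for eef1b2 and -0.27 and 0.12 for eif3k, and the F1 difference of eif3a between -0.047 and 0.16. Counting precision limits low members most, since the limits of eif4e3 reached 81.6% of the value.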
